A study of Mus musculus with 16 samples.

Results

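Colon lamina propria cells of gnotobiotic mice carrying a Δchat strain of *Bifidobacterium breve* were compared with those of mice carrying the wild-type (WT) strain. The comparison took every gene that passed an expression filter in the 8 colon libraries, 4 per strain, which left 14660 of the 35647 genes in the table. The series held 16 libraries in all, since ileum had been taken as well. Host mice had the label wild-type as their genotype, were kept germ-free until a single *B. breve* strain was introduced, and were sampled 5 weeks later. Their age, sex and inbred strain are not given in the labels, and WT and Δchat refer to the bacterium alone. After colonisation they lived in gnotobiotic isocages, and immune cells were enriched on a gradient of 40% and 80% Percoll, so each library is a mixture of cell types, and in such bulk RNA fewer cells of a type and less RNA per cell cannot be told apart. Nothing in the labels says whether mice of a group shared a cage or a litter, and the p-values measure the spread between these libraries.

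The lamina propria lies under the gut epithelium and holds macrophages, dendritic cells, lymphocytes and plasma cells, which secrete IgA into the lumen. Choline acetyltransferase, encoded by chat, makes acetylcholine, and host cells read acetylcholine through muscarinic receptors, which couple to G proteins, and nicotinic receptors, which are ion channels. The comparison asks which colon programmes differ when the commensal cannot make it, as far as the series title and the strain name state the question.

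Library totals ran from 17629148 to 23612373 estimated counts, and 17611 to 18206 genes had a count, with no difference between strains beyond the spread (exact 2-sided permutation p = 0.886 and 0.857; 4 against 4 libraries). The leukocyte gene *Ptprc* stood at 701 to 1361 CPM (counts scaled to a library of 1000000) in the 8 libraries, the ileal genes *Fabp6*, *Slc10a2* and *Sis* at or below 0.724 CPM, and the distal colon gene *Hoxb13* at 0.514 to 93.7 CPM, highest in Δchat library 3. Small-bowel defensin genes, near copies of each other, were the exception: *Defa17*, *Defa21*, *Defa22* and *Defa30* stood at 5.75 to 9.37 CPM in WT library 4 and 0.734 to 2.43 CPM in Δchat library 1, and at or below 0.0453 CPM in the other 6. Δchat library 3 stood apart. Epithelial genes took 1.18% of its counts, against 0.194 to 0.210% in the other Δchat libraries and 0.128 to 0.180% in WT. That share did not overlap between strains (exact 2-sided permutation p = 0.0286, the smallest that 4 against 4 libraries allow; Benjamini-Hochberg 0.0857 over 6 shares and totals). The share of immunoglobulin genes was 8.05 ± 2.23% with WT and 3.77 ± 0.506% with Δchat (SD, n = 4 each), with the same exact permutation p of 0.0286 and adjusted value of 0.0857. On the first principal component, with 45.5% of the variance, Δchat library 3 lay at -88.8 and the other 7 between -13.3 and 50.3. Results are therefore given with all 8 libraries and, for the main ones, again without that library.

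1 gene of 14660 passed in the 8 libraries (0.00682%; edgeR quasi-likelihood test, Benjamini-Hochberg adjusted p below 0.05), and 2 of 14818 passed without Δchat library 3 (0.0135%). At an unadjusted p below 0.05, 1172 genes (7.99%) were higher with Δchat and 779 (5.31%) lower. Without Δchat library 3 these counts were 955 (6.44%) and 846 (5.71%), and 1315 of the 1951 genes were in both sets with the same direction. In 584 genes (3.98%) all 4 Δchat libraries lay above all 4 WT libraries, and in 479 (3.27%) all lay below. DESeq2 called 134 genes higher (0.914%) and 174 lower (1.19%). These included all 24 genes of smallest edgeR p, 12 in each direction, that the naming rule took. By sign alone 7471 genes (51%) were higher, and the middle of all log2 fold changes lay at 0.01. Log2 fold changes are Δchat minus WT with their standard error from the edgeR fit, levels are CPM scaled by TMM, and adjusted p-values come from edgeR after Benjamini-Hochberg correction unless DESeq2 is named. The words passed and called refer to that edgeR test too, unless another method is named. Below, nominal means an unadjusted p below 0.05, which is no call. The nominal counts of each gene list stand beside 7.99% of all genes nominally higher and 5.31% nominally lower. Without Δchat library 3 these shares are 6.44% and 5.71%.

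The gene that rose was *Retnla* (ENSMUSG00000061100), which encodes RELM alpha, secreted by macrophages in the alternatively activated state and by eosinophils, and is induced by interleukins 4 and 13 through the transcription factor STAT6. It stood at 9.14, 9.10, 9.52 and 8.78 CPM in the WT libraries and at 29.0, 27.2, 25.9 and 38.3 CPM in the Δchat libraries. The WT values lay within 1 CPM of each other, and the lowest Δchat value was that of library 3, far above all of WT. The log2 fold change was 1.72 ± 0.14 (adjusted p = 0.00875), and 1.78 ± 0.13 without Δchat library 3 (adjusted p = 0.00981). The call was lost without some of the libraries: without Δchat library 1, WT library 2 or WT library 3 the adjusted p was 0.0703, 0.0968 and 0.0861, at log2 fold changes of 1.73, 1.72 and 1.74. In the ileal libraries the value for *Retnla* was -1.36 ± 0.65 (adjusted p = 0.494), and the difference between the tissues, 3.04 ± 0.68, did not pass (adjusted p = 0.257).

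Of the 23 tested genes of the list of resistin-like and alternative activation genes, 5 were nominally higher and 1 lower, with a median of 0.28 (0.22 without Δchat library 3). By sign 16 were higher and 7 lower, and without Δchat library 3 the nominal counts were 5 and 2. The nominally lower gene was *Pdcd1lg2* (-0.58 ± 0.17, and -0.49 without Δchat library 3), which overlapped between strains. *Arg1* (-0.13 ± 0.26) and *Chil3* (-0.86 ± 0.90), named after their values were seen, overlapped as well. *Mrc1*, the mannose receptor CD206, stood at 14.7 to 21.5 CPM in WT and 23.4 to 45.3 CPM in Δchat without overlap (0.86 ± 0.21, adjusted p = 0.279). The 250 bases before the start of *Retnla* are shown because it is the called gene (chr16:48842359-48842608 on the plus strand, GRCm38.p6, RefSeq), with the 1 match to the STAT6 motif TTCNNNNGAA in capitals, at -145 to -136 from the start. That motif, searched on both strands, was in 6.95% of all 32851 RefSeq promoter windows (250 bases before to 50 after a start). Counted by gene, with a match in any of its windows, it was in 6.59% of the 11064 tested genes with a window. Over all 27025 genes with a window that share was 8.01%. A match is a description, not a site or a cause.
Retnla: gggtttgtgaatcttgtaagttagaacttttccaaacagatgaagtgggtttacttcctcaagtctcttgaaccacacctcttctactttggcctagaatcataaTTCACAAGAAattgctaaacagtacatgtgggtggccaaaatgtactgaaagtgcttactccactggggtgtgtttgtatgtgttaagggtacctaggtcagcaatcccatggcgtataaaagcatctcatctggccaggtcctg

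**Figure D1:**
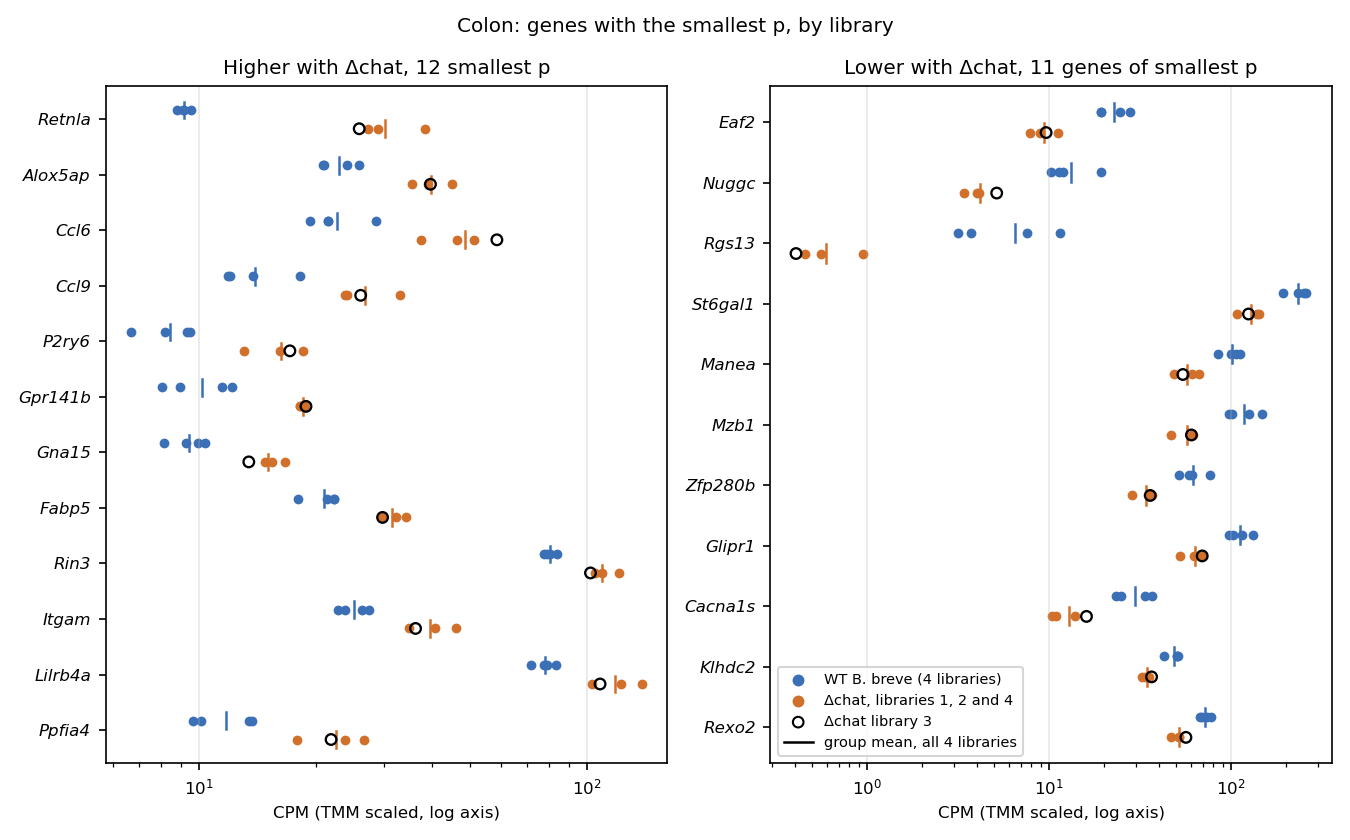
Expression in CPM (log axis) of the genes with the smallest p in each direction in the 8 colon libraries; points are libraries, the open circle is Δchat library 3 and short bars are group means. *Retnla*, at 8.78 to 9.52 CPM in WT and 25.9 to 38.3 CPM in Δchat, was the gene that passed; in the genes shown the 2 groups do not overlap, which their choice by small p makes likely.

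The other genes of smallest p on the higher side include several known from myeloid cells, and none passed (adjusted p = 0.135 to 0.155). *Alox5ap*, the membrane protein that hands arachidonic acid to 5-lipoxygenase for leukotriene synthesis, stood at 20.9, 24.1, 25.9 and 21.0 CPM in WT and 35.5, 38.9, 39.5 and 45 CPM in Δchat. Its log2 fold change was 0.79 ± 0.11 with all libraries and 0.79 ± 0.12 without Δchat library 3. The chemokine *Ccl6* stood at 21.5, 21.5, 19.3 and 28.5 CPM against 37.5, 46.2, 58.6 and 51.3 CPM (1.09 ± 0.16), and *Ccl9*, a chemokine of the same family, at 11.9 to 18.2 against 23.8 to 33.0 CPM (0.94 ± 0.17). In each of these 3 genes every Δchat library lay above every WT library.

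Receptors and signalling genes came next. *P2ry6*, the receptor for UDP, had a log2 fold change of 0.95 ± 0.16, the orphan receptor gene *Gpr141b* 0.86 ± 0.15, and *Gna15*, a G protein subunit of blood cells, 0.68 ± 0.12. *Itgam*, the CD11b integrin chain of myeloid cells, had 0.65 ± 0.11, and *Lilrb4a*, an inhibitory receptor, 0.60 ± 0.11. *Fabp5*, a fatty acid carrier, had 0.58 ± 0.10, *Rin3*, an exchange factor for endosomal Rab proteins, 0.45 ± 0.08, and *Ppfia4*, a liprin scaffold, 0.94 ± 0.17. Without Δchat library 3 the rule also took *Fcrls*, an Fc receptor-like gene of macrophages (1.31 ± 0.22), *St3gal5*, which makes the ganglioside GM3 (0.57 ± 0.09), *B3galt5*, a galactosyltransferase (0.96 ± 0.16), and *Dvl2*, a Wnt signal transducer (0.75 ± 0.12), each at adjusted p = 0.159. *Dvl2* stood at 106, 101 and 81.8 CPM in Δchat libraries 1, 2 and 4 and at 55.2 CPM in library 3, within the WT range of 52.0 to 66.9 CPM. The second gene called without library 3 was *Igkv3-12*, a kappa variable segment at 21.9 to 50.0 CPM in WT, 3.90 to 4.22 CPM in Δchat libraries 1, 2 and 4 and 24.3 CPM in library 3 (-3.10 ± 0.29 without library 3, adjusted p = 0.0333). It was named after its values were seen, and variable segments, like *Lilrb4a*, *Gpr141b* and the mast cell proteases below, have near copies between which estimated counts can be split.

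On the lower side, 11 genes are given (adjusted p = 0.135 to 0.155, none called), and several are known from B cells and plasma cells; *St6gal1* and *Manea* are described with the glycosylation genes. *Eaf2*, an elongation factor gene of germinal centre B cells and plasma cells, stood at 19.3, 28.0, 19.3 and 24.6 CPM in WT and 8.94, 11.2, 9.64 and 7.92 CPM in Δchat (-1.27 ± 0.16). *Nuggc*, a GTPase gene switched on in germinal centres, stood at 10.2 to 19.3 against 3.43 to 5.16 CPM (-1.65 ± 0.23), and *Rgs13*, a brake on G protein signalling in germinal centre B cells, at 3.14 to 11.5 against 0.408 to 0.950 CPM (-3.45 ± 0.50). *Mzb1*, a chaperone of antibody-secreting cells, had a log2 fold change of -1.03 ± 0.16. The others were *Cacna1s*, a calcium channel subunit (-1.22 ± 0.20), *Zfp280b*, a zinc finger gene (-0.86 ± 0.14), *Glipr1*, a CAP family gene (-0.82 ± 0.13), *Klhdc2*, a substrate receptor of a ubiquitin ligase (-0.50 ± 0.09), and *Rexo2*, a mitochondrial oligoribonuclease (-0.47 ± 0.08). The part of B cells and plasma cells in their values was not tested. Of these, *Cacna1s* and *Glipr1* had log2 fold changes of -1.0 ± 0.16 and -0.74 ± 0.12 in ileum, each at adjusted p = 0.0876.

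The list of plasma cell genes had 33 of 35 tested members lower by sign and 27 nominally lower (median -0.65, and -0.79 without Δchat library 3), that of the germinal centre 15 of 28 nominally lower (-0.46 and -0.44) and that of B cells 9 of 29 (-0.44 and -0.31). None of their members was called, and none was nominally higher. The B cell median was -0.01 in the fit that held the epithelial score, where those of the germinal centre and plasma cell lists were -0.30 and -0.68. The score is the mean log2 CPM of the general epithelial genes. That mean was 1.39 to 3.14 in WT and 3.20 to 6.55 in Δchat, highest in library 3. Since it did not overlap between strains, this fit cannot separate epithelial content from strain, here or where it is given below. *Igha*, the IgA heavy chain, and *Jchain*, which joins IgA into dimers, had log2 fold changes of -1.25 ± 0.24 and -1.2 ± 0.23. *Slpi*, a secreted protease inhibitor, stood at 76.0, 166, 80.9 and 78.3 CPM in WT and 20.9, 36.3, 52.3 and 31.3 CPM in Δchat (-1.51 ± 0.35, adjusted p = 0.260); it was named after its values were seen.

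Secreted and membrane proteins enter the endoplasmic reticulum through the Sec61 channel, lose their signal peptide, receive an N-glycan and are folded by chaperones, and many of these genes are induced by the unfolded protein response through the ER stress response element (ERSE). Of 38 tested genes of folding and secretion in the endoplasmic reticulum, 32 were lower by sign, 17 nominally lower and none nominally higher, where 5.31% of all genes were nominally lower. In 13 of them all Δchat libraries lay below all WT libraries (3.27% of all genes). The median was -0.20 both with and without Δchat library 3, and over 19 alternatives it ran from -0.25 to -0.14. No member was called.

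From the entry step the 3 members of smallest p are given, which do not stand for the whole step. *Srp54a*, a subunit of the signal recognition particle, had a log2 fold change of -0.35 ± 0.09, *Sec61g*, a channel subunit, -0.42 ± 0.11, and *Spcs2*, of the signal peptidase, -0.36 ± 0.09 (adjusted p = 0.297 to 0.301). Among disulfide isomerases, *Pdia4* stood at 194, 233, 217 and 239 CPM in WT and 121, 148, 184 and 148 CPM in Δchat, with the highest Δchat value in library 3 (-0.56 ± 0.13, and -0.67 ± 0.11 without it). *Ckap4*, a membrane protein that shapes ER sheets, followed the same order, with 47.1 to 47.8 CPM in Δchat libraries 1, 2 and 4, 58.6 CPM in library 3 and 65.8 to 92.0 CPM in WT (-0.61 ± 0.12, and -0.69 ± 0.12 without it).

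Chaperones lay on both sides of 0. *Hsp90b1*, the ER member of the HSP90 family, stood at 1400, 1726, 1651 and 1926 CPM in WT and 961, 1318, 1334 and 1341 CPM in Δchat (-0.44 ± 0.14, adjusted p = 0.324), with every Δchat library below every WT library. *Pdia6*, a disulfide isomerase (-0.38 ± 0.12), and *Dnajc3*, a co-chaperone (-0.28 ± 0.09), also did not overlap. *Hspa5*, the ER chaperone BiP and the most abundant member, stood at 2988 to 4125 CPM in WT and 3289 to 4660 CPM in Δchat (0.12 ± 0.15, adjusted p = 0.730), a value on the other side of 0. *Canx* (-0.19 ± 0.09), *Syvn1* (-0.22 ± 0.13) and *Calr* (-0.09 ± 0.10), which encode a membrane lectin, a ubiquitin ligase and a soluble lectin of the same compartment, overlapped between strains. These 7 chaperone and quality control genes are those with an ERSE match, and *Canx*, *Syvn1*, *Pdia6* and *Dnajc3* among them were chosen after their values were seen.

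The element, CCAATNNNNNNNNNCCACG, was found on either strand in the windows of 7 of 31 folding and secretion genes with a window (22.6%), in 19 of 11064 tested genes (0.172%) and in 39 of 32851 windows (0.119%). Windows of 4 of the 7 are shown to set the 3 genes lowest in Δchat beside *Hspa5*, each as the 250 bases before the start (GRCm38.p6, RefSeq) with the match in capitals. *Hsp90b1* (chr10:86705445-86705694 on the minus strand) held 2 matches, at -212 to -194 and, on the opposite strand, at -107 to -89. *Dnajc3* (chr14:118937682-118937931 on the plus strand) held 1 at -105 to -87, *Pdia6* (chr12:17266339-17266588 on the plus strand) 1 at -98 to -80 and *Hspa5* (chr2:34771840-34772089 on the plus strand) 1 at -65 to -47. The element was thus in windows of genes that were lower by sign and of *Hspa5* alike.
Hsp90b1: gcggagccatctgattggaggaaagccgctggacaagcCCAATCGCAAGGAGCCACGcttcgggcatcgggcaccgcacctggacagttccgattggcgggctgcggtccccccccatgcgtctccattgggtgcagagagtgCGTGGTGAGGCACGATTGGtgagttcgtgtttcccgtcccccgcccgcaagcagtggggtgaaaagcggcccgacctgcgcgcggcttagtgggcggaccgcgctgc
Dnajc3: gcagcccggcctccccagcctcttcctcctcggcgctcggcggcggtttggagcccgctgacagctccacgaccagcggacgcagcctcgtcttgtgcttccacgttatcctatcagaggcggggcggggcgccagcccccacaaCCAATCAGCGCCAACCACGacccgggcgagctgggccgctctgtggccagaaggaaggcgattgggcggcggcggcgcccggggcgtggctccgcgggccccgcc
Pdia6: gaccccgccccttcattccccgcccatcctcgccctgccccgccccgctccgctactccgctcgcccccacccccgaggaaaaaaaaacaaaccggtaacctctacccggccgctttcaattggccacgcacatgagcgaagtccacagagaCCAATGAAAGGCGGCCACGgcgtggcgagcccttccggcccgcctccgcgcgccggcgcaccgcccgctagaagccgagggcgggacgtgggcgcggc
Hspa5: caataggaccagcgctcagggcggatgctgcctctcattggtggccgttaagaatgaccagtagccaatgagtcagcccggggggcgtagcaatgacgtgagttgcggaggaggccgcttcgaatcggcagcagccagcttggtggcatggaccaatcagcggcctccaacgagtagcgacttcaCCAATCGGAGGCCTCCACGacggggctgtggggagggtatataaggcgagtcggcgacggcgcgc

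N-glycan genes were also mostly lower by sign. Of 45 tested members 30 were lower by sign, 11 nominally lower (5.31% of all genes) and 1 nominally higher (7.99% of all genes). In every Δchat library 9 lay below WT (3.27% of all genes). The median was -0.07, and -0.12 without Δchat library 3. *St6gal1*, the sialyltransferase that caps N-glycans on IgG and B cell receptors, stood at 233, 253, 193 and 260 CPM in WT and 143, 138, 125 and 107 CPM in Δchat (-0.87 ± 0.13, adjusted p = 0.135). *Manea*, the Golgi endomannosidase, stood at 107, 113, 85.1 and 100 CPM against 61.2, 66.7, 54.4 and 48.5 CPM (-0.81 ± 0.12). For both genes all Δchat libraries lay below WT. *Stt3b*, a catalytic subunit of oligosaccharyltransferase (-0.41 ± 0.10), *Man1a*, a Golgi mannosidase (-0.39 ± 0.12), and *Mgat1*, which starts complex N-glycans (-0.29 ± 0.06), had smaller differences without overlap. Summed over the plasma cell list, expression was 51906 to 96723 CPM in WT and 27818 to 39279 CPM in Δchat, and the part of those cells in the secretory values was not tested.

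**Figure D2:**
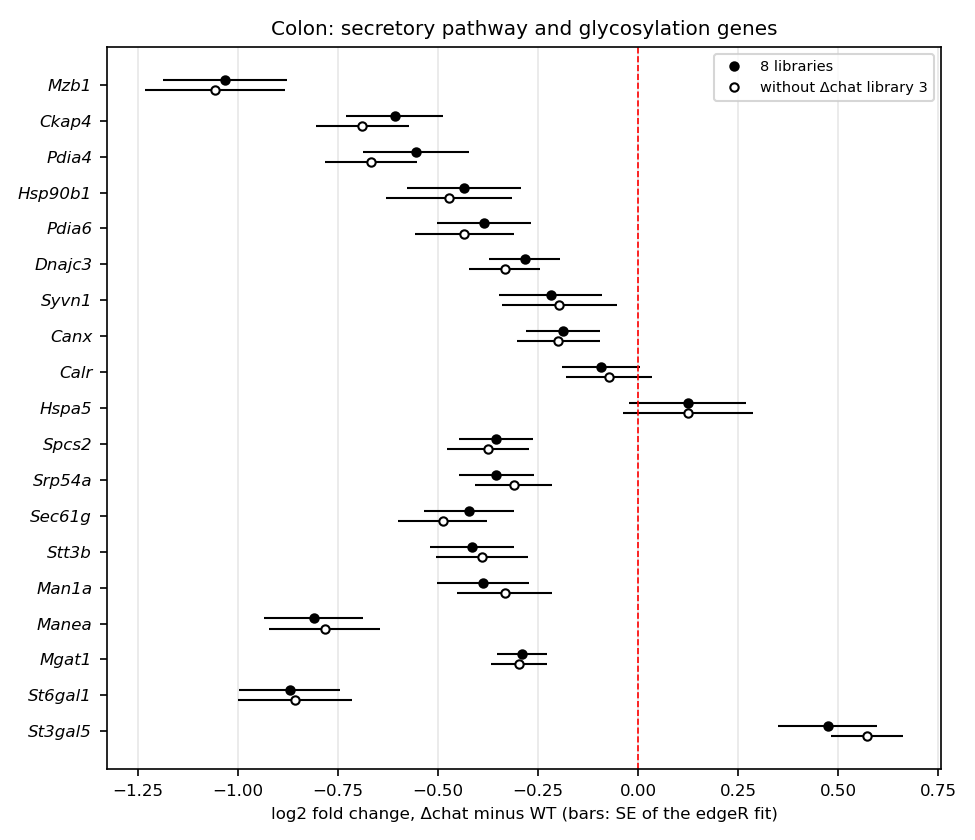
Log2 fold change (Δchat minus WT) of secretory pathway and glycosylation genes with the standard error of the edgeR fit, with 8 libraries (filled) and without Δchat library 3 (open). *Mzb1* (-1.03), *St6gal1* (-0.87) and *Manea* (-0.81) lie farthest to the left, *Hspa5* (0.12) just right of 0, and the open points stay close to the filled ones.

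Dendritic cell genes lay on both sides of 0, and none passed. Conventional dendritic cells take up antigen and prime T cells, and those of type 1 present it on MHC class I, whereas plasmacytoid dendritic cells make type I interferon. Of 28 tested members 16 were higher by sign and 12 lower, with 8 nominally higher and 2 nominally lower. The median was 0.13 (0.17 without Δchat library 3, 0.06 without Δchat library 2 and 0.07 without WT library 4). The 2 nominally lower genes were listed for plasmacytoid cells: *Siglech*, a lectin, and *Bst2*, an interferon-inducible surface protein also in the interferon-induced list. *Siglech* stood at 3.83, 4.06, 2.85 and 3.68 CPM in WT and 1.74, 1.63, 1.95 and 1.64 CPM in Δchat (-1.05 ± 0.20, adjusted p = 0.178). *Bst2* stood at 118, 162, 143 and 133 CPM against 71.1, 76.3, 90.4 and 96.4 CPM (-0.74 ± 0.13, adjusted p = 0.155). Neither gene overlapped between strains. The part of other cells, plasma cells among them, in the *Bst2* value was not tested. *Tcf4* (-0.19 ± 0.09) and *Ccr9* (-0.42 ± 0.24) of the same list, named after their values were seen, were lower by sign and overlapped.

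Among the higher genes, *Flt3*, the growth factor receptor of dendritic cells, stood at 29.1, 32.2, 31.1 and 34.2 CPM in WT and 41.0, 38.1, 42.4 and 48.7 CPM in Δchat (0.43 ± 0.10, adjusted p = 0.241). *Itgax*, the CD11c integrin chain, had a log2 fold change of 0.58 ± 0.16, and *Itgae*, the CD103 chain that lymphocytes in the epithelium also carry, 0.57 ± 0.16. *Tlr3*, a sensor of double-stranded RNA in type 1 cells, had 0.54 ± 0.16. The further type 1 genes were chosen after their values were seen: the transcription factor *Batf3* (0.67 ± 0.20), the receptors *Clec9a* (0.41 ± 0.17) and *Xcr1* (0.56 ± 0.25) and the adhesion gene *Cadm1* (0.57 ± 0.22). *Batf3* did not overlap, at 2.63 to 4.57 CPM in WT and 5.59 to 6.69 CPM in Δchat, and the other 3 did. The list members *Wdfy4* (-0.10 ± 0.16) and *Irf4* (-0.13 ± 0.22), taken by level, were lower by sign and overlapped. *Irf8*, the factor that type 1 and plasmacytoid cells share, stood at 210 to 283 CPM in WT and 228 to 291 CPM in Δchat (0.13 ± 0.11), and *Ccr7*, of migrating dendritic and naive lymphoid cells, at 430 to 727 against 331 to 657 CPM (-0.14 ± 0.25). The macrophage list, summed to 2098 to 2613 CPM in WT and 2197 to 3884 CPM in Δchat and had 14 of 24 members nominally higher (median 0.54, 0.56 without Δchat library 3 and 0.36 without Δchat library 2); its part was not tested.

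Genes of cytotoxic lymphocytes and natural killer cells were mostly higher by sign, 23 of 29, with 6 nominally higher and 2 lower and a median of 0.31. Without Δchat library 3, 10 were nominally higher, 2 lower and the median was 0.37, and over 19 alternatives it ran from 0.21 to 0.37. *Ifng*, the cytokine interferon gamma, stood at 3.54, 7.14, 7.88 and 8.48 CPM in WT and 18.7, 10.3, 9.74 and 14.3 CPM in Δchat, without overlap (0.97 ± 0.30, adjusted p = 0.319). The natural killer receptors *Klrk1*, *Klrb1c* and *Klrc1* had log2 fold changes of 0.55 ± 0.18, 0.53 ± 0.17 and 0.57 ± 0.19. *Cd244a*, a receptor of natural killer and intraepithelial cells, had 0.72 ± 0.18, and comes from the list of gamma delta and intraepithelial T cells. Of 21 tested members of that list 6 were nominally higher and 2 lower (median 0.24, and 0.30 without Δchat library 3). Those lower were *Gpr18* (-0.72 ± 0.23, with overlap) and *Gzma*, which both lists hold. *Gzmb*, the granzyme that triggers apoptosis in target cells, stood at 17 to 29.2 CPM in WT, at 47.6 CPM in Δchat library 1 and at 29.3 to 30.3 CPM in the other 3. Its log2 fold change of 0.50 ± 0.22 was not nominal with all libraries. The nominally lower members of the cytotoxic list were *Gzma*, another granzyme (-0.61 ± 0.24, without overlap), and *Cst7* (-0.49 ± 0.18, with overlap). *Stat4* (-0.38 ± 0.27) and *Prf1* (-0.34 ± 0.16) were also lower by sign, and overlapped. *Gzma*, *Cst7* and *Prf1* were named after their values were seen. For the 30 general T cell genes the median was -0.04, with 1 nominally higher and 1 lower (a median of 0.08 without Δchat library 3 and 0.29 in the fit that held the epithelial score).

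Type 2 and regulatory lymphocyte genes were mostly higher by sign. Of 25 genes of type 2 lymphocytes 18 were higher by sign and 7 lower, with 5 nominally higher and none lower. Their median was 0.25 (0.33 without Δchat library 3 and 0.05 without Δchat library 2). Those nominally higher include *Nmur1*, the neuromedin U receptor of innate type 2 cells (0.629 to 1.36 CPM in WT, 1.53 to 2.02 CPM in Δchat, 0.74 ± 0.30), and their master factor *Gata3* (0.57 ± 0.21). *Il9r* (-0.13 ± 0.27) and *Crlf2* (-0.05 ± 0.12), taken by level, overlapped between strains. So did the cytokine genes *Il5* (0.23 ± 0.39) and *Il13* (0.12 ± 0.29), named after their values were seen. The regulatory T cell list had a median of 0.30 over 23 members, which was -0.04 without Δchat library 2. By sign 19 were higher and 4 lower, with 2 nominally higher and 2 lower (4 and 0 without Δchat library 3). The nominally lower genes were *Capg* (-0.31 ± 0.12, with overlap) and *Prdm1* (-0.20 ± 0.09, without overlap), the higher ones *Ikzf2* (0.91 ± 0.33) and *Entpd1* (0.27 ± 0.12). In Δchat library 2 *Ikzf2*, the factor Helios, stood at 62.8 CPM, against 22.5 to 26.7 CPM in the other Δchat libraries and 14.6 to 20.4 CPM in WT.

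Eosinophil and mast cell genes lay on both sides of 0. *Ear2*, an eosinophil ribonuclease, stood at 0.771 to 1.96 CPM in WT and 2.29 to 5.53 CPM in Δchat (1.34 ± 0.37), and *Siglecf*, the eosinophil lectin, at 0.335 to 1.36 against 1.28 to 3.06 CPM (1.47 ± 0.47). *Il5ra*, the interleukin 5 receptor chain of eosinophils and of B-1 cells, was the nominally lower member, at 10.4, 15.1, 11.9 and 17.9 CPM in WT and 5.87, 4.79, 3.44 and 1.48 CPM in Δchat, without overlap (-1.82 ± 0.38, adjusted p = 0.208). *Prg2*, named after its values were seen, had means of 19.1 CPM in WT and 17.6 CPM in Δchat (-0.12 ± 0.25). The eosinophil list as a whole had 5 of 15 members nominally higher and 1 lower (median 0.48, and 0.46 without Δchat library 3). By sign 11 were higher and 4 lower. Among the 5, *Alox5ap* and *Alox5* are also in the leukotriene list below, and *Gata2* is also in the mast cell list. Of the mast cell list, 4 of 20 were nominally higher and none lower (median 0.38, 0.31 without Δchat library 3 and 0.16 without Δchat library 1). The mucosal mast cell proteases *Mcpt1* and *Mcpt2* had log2 fold changes of 1.27 ± 0.29 and 1.51 ± 0.42, from 1.71 to 3.45 and 0.457 to 1.35 CPM in WT, and *Kit*, the stem cell factor receptor, 0.40 ± 0.14.

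Of the lipoxygenase and leukotriene genes, 6 of 21 were nominally higher and none lower, with a median of 0.26 (0.22 without Δchat library 3, and 0.05 in the fit that held the epithelial score). Beside *Alox5ap* they held *Alox5*, the 5-lipoxygenase itself (3.92 to 5.10 CPM in WT, 4.81 to 7.25 CPM in Δchat; 0.51 ± 0.19), and *Alox12*, the platelet-type enzyme (0.82 ± 0.24). *Tbxas1*, thromboxane synthase, stood at 8.17 to 14.5 against 16 to 22.6 CPM (0.72 ± 0.19). *Alox5ap* was also 1 of 9 genes of 15198 whose strain effect passed as different between colon and ileum (0.0592%): the difference was 1.1 ± 0.18 (adjusted p = 0.0348), with an ileal log2 fold change of -0.35 ± 0.13. With the mouse as a block, on the assumption that colon and ileal libraries of a strain with the same number come from 1 mouse, which the labels do not state, it was 1.12 ± 0.17 and did not pass (adjusted p = 0.144), and no gene passed when any 1 of 9 of the 16 libraries was left out. *Retnlg*, a resistin-like gene of neutrophils, had a difference of 3.45 ± 0.57 (adjusted p = 0.0438, and 0.318 with the mouse block), from 0.69 ± 0.34 in colon and -2.81 ± 0.43 in ileum.

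Chemokines and their receptors set where leukocytes settle. Of 19 CC ligand genes 5 were nominally higher and none lower, with a median of -0.04 (4, none and -0.02 without Δchat library 3). Of 24 receptor genes 4 were nominally higher and 6 lower (6 and 6 without Δchat library 3). *Ccr10*, the receptor that brings IgA plasma cells to the colon, stood at 25.9, 59.8, 39.4 and 41.4 CPM in WT and 19.3, 18.6, 19.7 and 16.6 CPM in Δchat, a narrow band below all of WT (-1.17 ± 0.22, adjusted p = 0.173). *Gpr15*, a colon homing receptor, had -0.99 ± 0.34, and *Ccr2*, which lets monocytes leave the marrow, 0.65 ± 0.17, at 22 to 34.3 against 35.5 to 56.9 CPM. The monocyte surface gene *Ly6c2*, by contrast, had -0.73 ± 0.21. The ligand of *Ccr10* made by epithelium, *Ccl28*, stood at 0.457 to 2.18 CPM in WT and at 2.38, 3.72, 39.0 and 2.48 CPM in Δchat; its log2 fold change was 3.05 ± 1.09, and 1.0 ± 0.45 without library 3. *Ccl12*, a monocyte attractant, had 1.01 ± 0.31 at 0.712 to 0.971 CPM in WT.

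In the acetylcholine list, 16 of 35 members in the table were tested, and the median was -0.07 (-0.06 without Δchat library 3). Of the 16, 1 was nominally higher and 2 lower, where 7.99% and 5.31% of all genes were. *Chat* had no count in any of the 8 libraries, which allows up to 0.126 to 0.178 CPM (3 counts per library, counting error only). *Chrm2*, a muscarinic receptor best known from smooth muscle and heart, stood at 3.03, 2.33, 4.69 and 4.98 CPM in WT and 7.66, 6.79, 8.33 and 10.2 CPM in Δchat, with no overlap and with library 3 inside the Δchat range (1.13 ± 0.27, adjusted p = 0.260). *Chrnb4*, a nicotinic subunit of autonomic neurons, stood at 1.2, 1.07, 1.13 and 1.19 CPM in WT and 0.367, 0.186, 0.815 and 0.475 CPM in Δchat, also without overlap (-1.30 ± 0.41, adjusted p = 0.323, and -1.73 ± 0.39 without library 3). *Chrnb1*, a subunit of the muscle receptor, had -0.30 ± 0.12 and *Ly6e*, of the Ly6 family to which nicotinic receptor modulators belong, -0.19 ± 0.08, both without overlap. The enzymes that break acetylcholine down, *Ache* (0.42 ± 0.39) and *Bche* (1.14 ± 0.57, and 0.42 ± 0.43 without library 3, which held 9.06 CPM), with the anchoring subunit *Colq* (-0.33 ± 0.24), overlapped between strains. So did the muscarinic receptor *Chrm3* (0.52 ± 0.37), the nicotinic subunits *Chrna2* (-0.11 ± 0.22), *Chrna10* (-0.02 ± 0.43), *Chrnb2* (0.01 ± 0.21) and *Chrne* (-0.43 ± 0.34), their chaperone *Ric3* (-0.15 ± 0.26), their modulator *Lynx1* (-0.19 ± 0.11) and the choline transporter *Slc44a2* (0.08 ± 0.13). Another choline transporter gene, *Slc44a1*, was at 179 CPM in Δchat library 3 and at 74.3 to 114 CPM in the other 7 libraries, and its log2 fold change of 0.20 ± 0.27 was -0.15 without library 3.

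Genes of the smooth muscle and pericyte list summed to 2161 to 3118 CPM in WT and 2508 to 4003 CPM in Δchat, and of 27 tested members 4 were nominally higher, pericyte genes such as *Rgs5* (0.56 ± 0.21) among them; their part in the *Chrm2* value was not tested. Enteric glia, which sheathe the neurons of the gut wall, were represented by few and low genes: of 18 tested genes of enteric neurons, glia and interstitial cells 6 were nominally lower and 1 higher (median -0.08, and -0.11 without Δchat library 3). *Sox10*, the glial identity factor, stood at 2.0, 1.68, 2.01 and 0.949 CPM in WT and 0.459, 0.325, 0.226 and 0.264 CPM in Δchat (-2.36 ± 0.37, adjusted p = 0.135). *Cdh19*, a glial cadherin, stood at 3.89, 1.87, 2.52 and 0.949 CPM against 0.504, 0.697, 0.408 and 0.317 CPM (-2.24 ± 0.47, adjusted p = 0.208). Neither gene overlapped between strains. Without Δchat library 3 the log2 fold changes of *Sox10* and *Cdh19* were -2.23 and -2.16. *Ano1*, the channel of pacemaker cells that epithelium also expresses, was at 105 CPM in Δchat library 3 and at 22.8 to 33.0 CPM in the other 3 Δchat libraries, against 14.1 to 22 CPM in WT. The fibroblast list, another cell type of the gut wall, summed to 2136 to 4065 CPM in WT and 2179 to 3776 CPM in Δchat, and so overlapped.

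Vessel genes lay on both sides of 0. In a list of 29 endothelial genes 5 were nominally higher and 1 lower (median 0.30, 0.31 without Δchat library 3 and 0.18 without Δchat library 4). The higher ones include *Cd36*, a fatty acid receptor of capillaries (0.67 ± 0.21), *Sox18* (0.58 ± 0.20), *Cdh5*, the endothelial cadherin (0.44 ± 0.16), and *Plvap*, of capillary fenestrae, at 621, 606, 1046 and 883 CPM in WT and 1148, 901, 1152 and 1824 CPM in Δchat (0.67 ± 0.25). The lower one, *Reln*, belongs to lymphatic endothelium (-1.26 ± 0.44), and 2 more lymphatic genes named after their values were seen were *Lyve1*, a hyaluronan receptor, at 47.4 to 124 against 6.42 to 55.7 CPM (-1.44 ± 0.62), and the factor *Prox1* (-0.68 ± 0.33). All of these overlapped between strains, and no adjusted p was below 0.313.

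**Figure D3:**
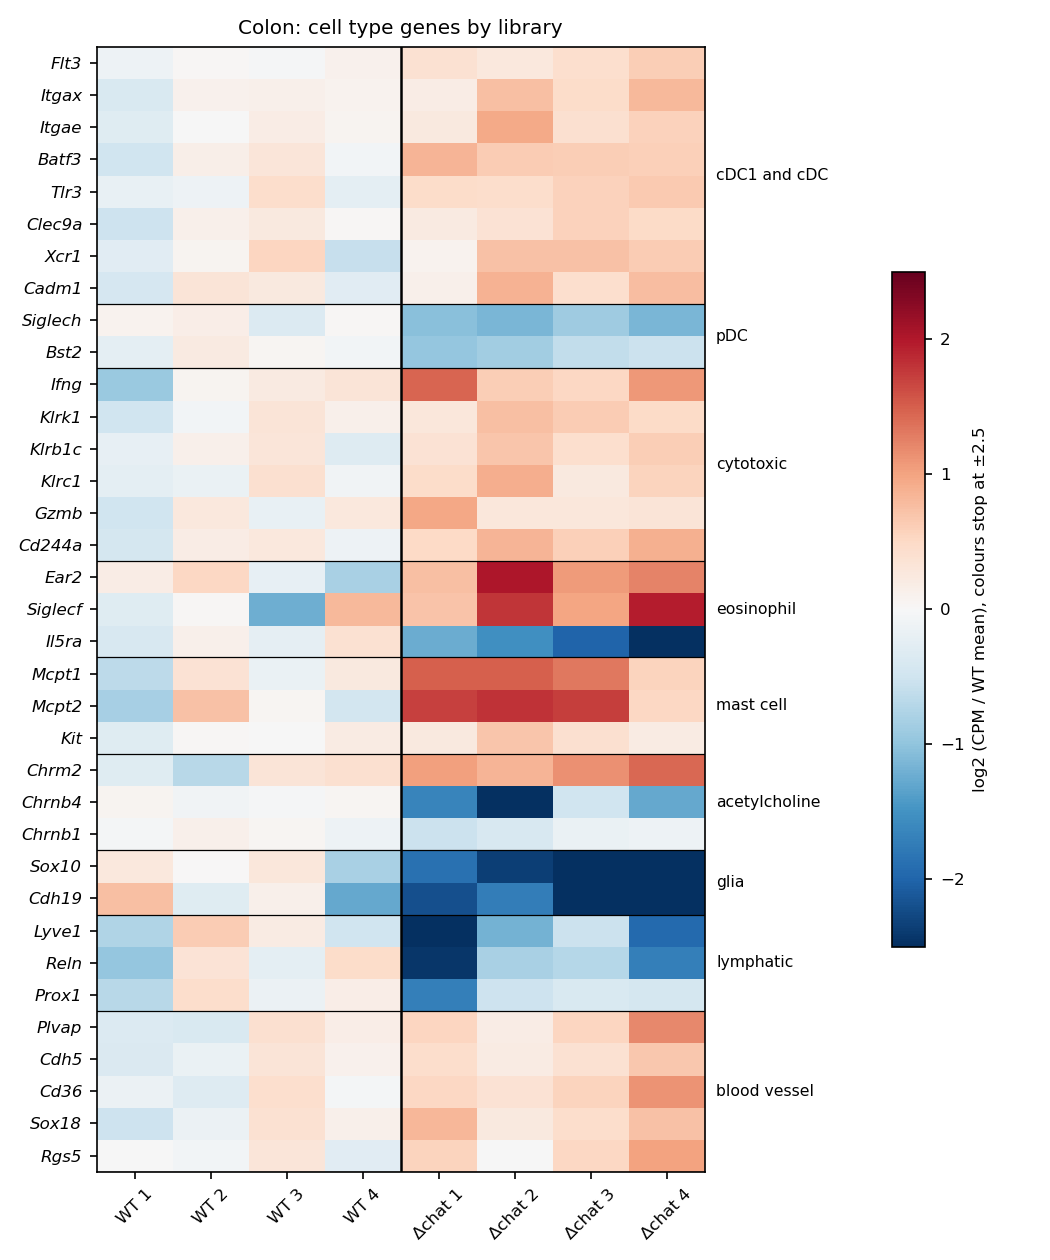
Level of genes of dendritic cells, cytotoxic lymphocytes, granulocytes, acetylcholine receptors, glia and vessels in each colon library, as log2 of CPM over the WT mean, with WT on the left and Δchat on the right. The rows of *Siglech*, *Bst2*, *Il5ra* and *Sox10* are blue in all 4 Δchat libraries, those of *Flt3*, *Ifng* and *Chrm2* red, and none of these genes passed by edgeR over all genes tested. Among the 19 alternatives *Bst2* passed in 2, *Siglech*, *Il5ra*, *Flt3* and *Chrm2* in 1 each and *Ifng* in 0. *Sox10* passed in 1 of 18.

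Epithelial genes depended most on Δchat library 3. Of 25 general epithelial genes all were higher by sign and 22 nominally so, with a median of 2.77; without that library the median was 0.88, with 12 nominally higher. The colonocyte list went from 1.90 to 0.68 and the secretory list from 2.49 to 1.02. *Krt8*, a keratin, stood at 7.94, 26.6, 61.8 and 23.6 CPM in WT and 67.6, 83.7, 1160 and 65.6 CPM in Δchat, so that the other 3 Δchat libraries also lay above WT, by a narrow margin. *Slc26a3*, the chloride exchanger of surface colonocytes, stood at 0.0571 to 0.475 CPM in WT and 0.779, 2.37, 134 and 4.80 CPM in Δchat (7.11 ± 2.04, and 3.35 ± 0.71 without library 3), and *Muc2*, the goblet cell mucin, at 2.40 to 11.1 against 23.1, 23.2, 185 and 36.8 CPM (3.23 ± 0.88, and 1.95 ± 0.46). *Car1*, a colonocyte carbonic anhydrase, by contrast overlapped outside library 3, at 2.40 to 6.08 CPM in WT and 3.44, 4.60 and 10.8 CPM in Δchat libraries 1, 2 and 4, with 230 CPM in library 3. *Lgals4*, a galectin, stood at 9.77 to 34.2 CPM in WT and 46.0 to 53.5 CPM in those 3, and *Pigr*, the receptor that carries IgA across the epithelium, at 10.4 to 63.5 against 46.5 to 74.3 CPM, with 880 CPM in library 3. *B3galt5*, among the genes of smallest p without library 3, is also an epithelial gene, at 4.86 to 7.48 CPM in WT, 11.1 to 12.2 CPM in Δchat libraries 1, 2 and 4 and 70.5 CPM in library 3. None of these genes passed in either fit.

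**Figure D4:**
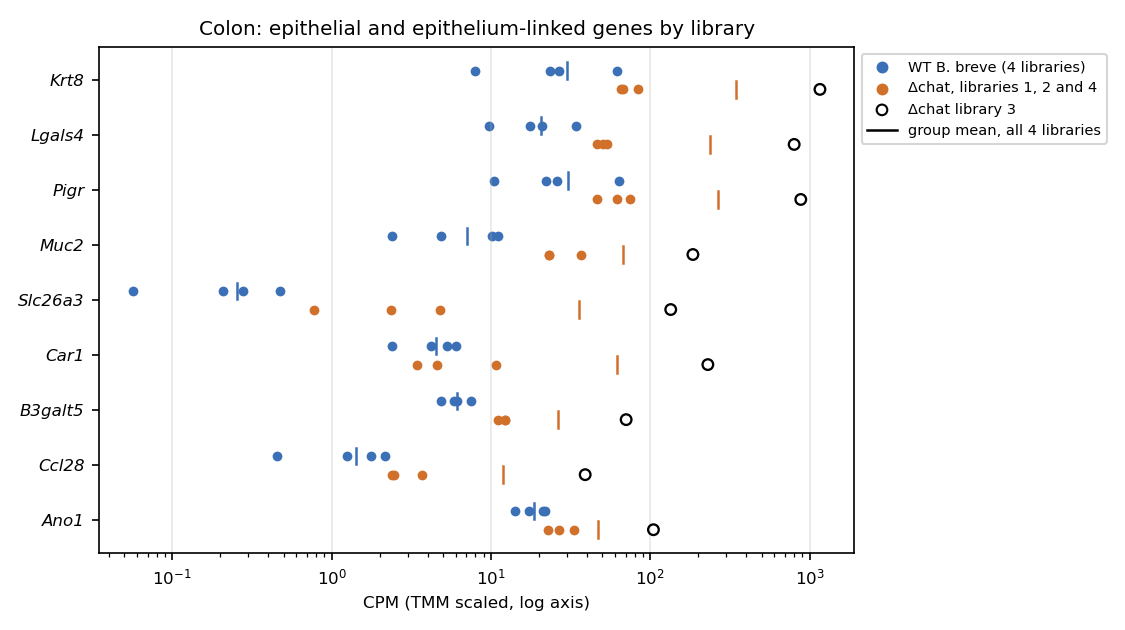
Expression in CPM (log axis) of epithelial genes and of genes that followed Δchat library 3 (open circle), by library. In *Krt8* and *Lgals4* the 3 filled Δchat points lie above the WT points and library 3 a further step to the right, at 1160 and 799 CPM; in *Car1* the filled points of both strains overlap.

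Housekeeping programmes differed with and without that library. Of 50 respiratory chain genes 1 was nominally lower in 8 libraries and 14 without Δchat library 3, and their median turned from 0.08 to -0.12. *Ndufa4*, of cytochrome oxidase, stood at 49.2 to 57.5 CPM in WT, at 36.3, 39.2 and 34.0 CPM in Δchat libraries 1, 2 and 4 and at 49.4 CPM in library 3 (-0.38 ± 0.12, and -0.50 ± 0.09 without it, adjusted p = 0.174). Cell cycle genes had 6 of 41 nominally lower and a median of -0.12, against 16 and -0.30 without library 3. *Hmgb2*, a chromatin protein of cycling cells (-0.41 ± 0.12), and *Mcm6*, of the replicative helicase (-0.34 ± 0.10), lay below WT in all Δchat libraries, and *Rrm2*, ribonucleotide reductase, stood at 11.6 to 18.4 against 9.17 to 13.7 CPM. Sterol synthesis had a median of 0.17, and of -0.01 without library 3; *Stard4*, a sterol carrier, stood at 45.4 to 58.0 CPM in WT, 62.6 to 69.5 CPM in 3 Δchat libraries and 113 CPM in library 3.

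**Figure D5:**
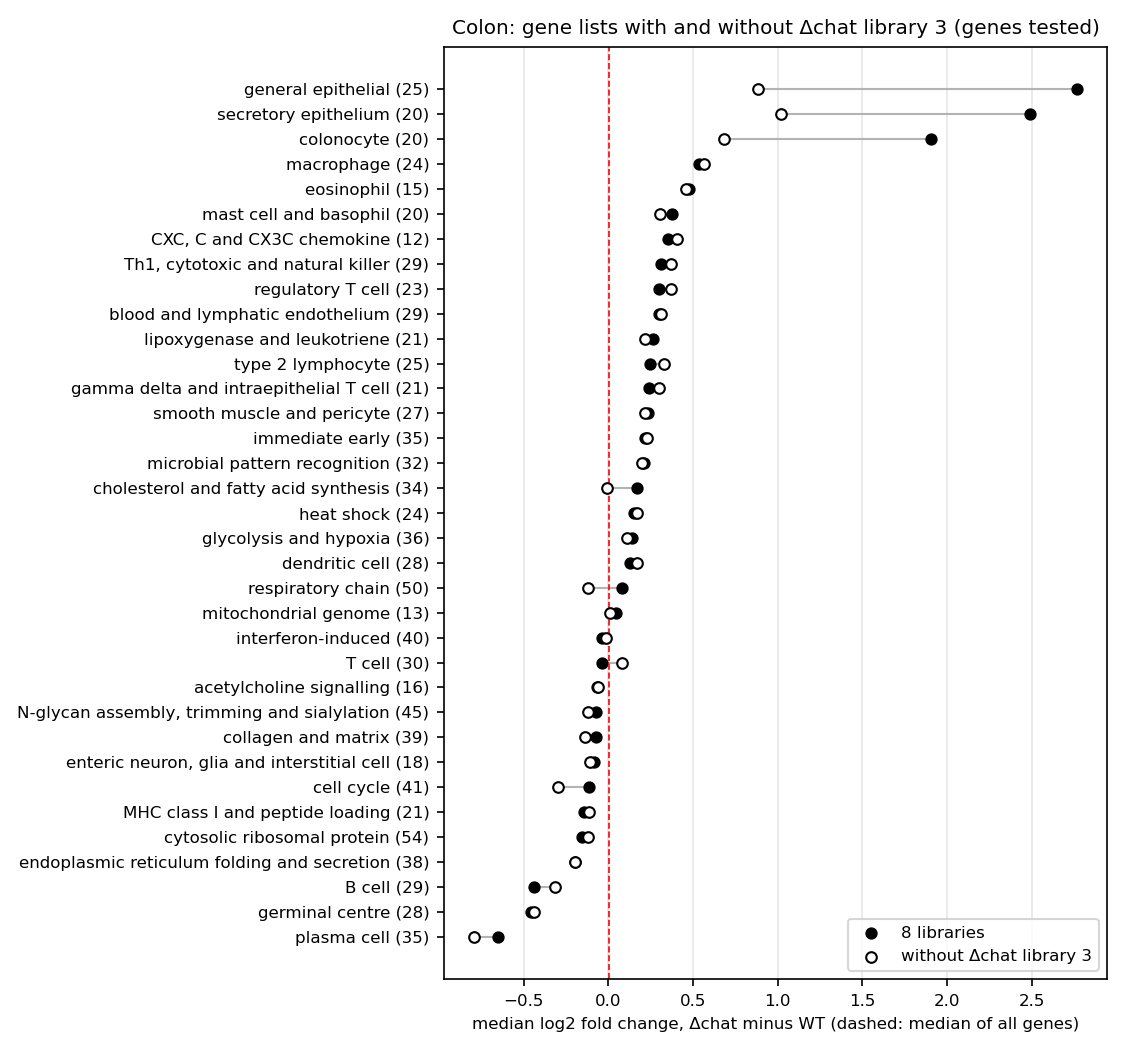
Median log2 fold change (Δchat minus WT) of each gene list in the 8 colon libraries (filled) and without Δchat library 3 (open), with the number of genes tested in brackets and the median of all genes dashed. The epithelial medians shrink from 2.77, 2.49 and 1.90 to 0.88, 1.02 and 0.68, those of the respiratory chain, sterol synthesis and T cells change sign, and those of plasma cells, germinal centre and endoplasmic reticulum stay on the lower side.

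Stress and activation genes had small differences. Of 35 immediate early genes 30 were higher by sign and 9 nominally so (median 0.22, 0.23 without Δchat library 3 and 0.14 without Δchat library 4), with *Klf6*, a zinc finger factor, at 491 to 577 CPM in WT and 654 to 845 CPM in Δchat (0.41 ± 0.11) and *Junb*, of the AP-1 factor, at 0.31 ± 0.10. Of 24 heat shock genes 3 were nominally higher, and 7 without Δchat library 3 (median 0.15, 0.17 without library 3 and 0.04 without Δchat library 4), with the mitochondrial chaperone *Hspd1* at 160 to 180 against 194 to 227 CPM (0.31 ± 0.08, adjusted p = 0.297). The cytokine *Tnf* stood at 8.80 to 16.1 CPM in WT and 17.9 to 25.4 CPM in Δchat (0.70 ± 0.20), whereas the list of TNF and NF-kB responses had a median of -0.11 (-0.04 without Δchat library 3), with 3 nominally higher and 1 lower of 29. Genes that sense microbial patterns had 8 of 32 nominally higher and 1 lower (median 0.21, and 0.20 without Δchat library 3). Among signals that support IgA class switching, *Tgfb3* stood at 39.2 to 50.9 against 30.0 to 38.6 CPM (-0.46 ± 0.13), without overlap, and *Nos2*, inducible nitric oxide synthase, at 1.60 to 3.02 against 3.21 to 5.65 CPM (0.82 ± 0.28).

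All 54 tested ribosomal protein genes were lower by sign, 6 of them nominally, with a median of -0.15, of -0.12 without Δchat library 3 and of -0.05 in the fit that held the epithelial score; *Rpl38* had the smallest p (-0.39 ± 0.12). Their summed share of counts overlapped between strains (3.44 ± 0.313% and 3.25 ± 0.259%, exact 2-sided permutation p = 0.429). Of 21 genes of MHC class I presentation, which shows peptides to CD8 T cells, 18 were lower by sign and 4 nominally (2 without Δchat library 3), with *H2-T23*, a non-classical heavy chain, at 305 to 329 CPM in WT and 232 to 276 CPM in Δchat (-0.35 ± 0.08) and *B2m*, the shared light chain, at -0.31 ± 0.11, both without overlap. Interferon-induced genes had 4 of 40 nominally lower, none higher and a median of -0.04 (-0.02 without Δchat library 3); *Bst2* is a member. Collagen and matrix genes had 39 members tested and a median of -0.07 (-0.13 without Δchat library 3), with 2 nominally higher and none lower.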

How the data were processed

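RNA of 8 colon libraries, 4 per strain, and 8 ileal libraries had been sequenced after poly-A selection without strand marking. The authors deposited estimated counts per gene, which the submitters' processing notes tie to Salmon 1.4.0, cutadapt 5.0 and the build GRCm39; the counts were rounded here. Libraries were grouped by title. The fit used edgeR 4.0.16 in R 4.3.3 (filterByExpr, TMM, robust quasi-likelihood test, 2-sided, Benjamini-Hochberg over all genes tested), and was tested on simulated data. The limit given for *Chat* covers counting error only. Standard errors of log2 fold changes come from the edgeR fit, which includes the spread between libraries. Alternatives were RLE scaling, no filter, a filter of 1 CPM in 4 libraries, DESeq2 1.42.0, limma 3.58.1 voom with quality weights, removal of immunoglobulin or epithelial genes, an epithelial covariate, a block, 1 fit over 16 libraries, a fit that was not robust, and each library left out.

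The members and the 67 gene lists were chosen with earlier results of these data known. Named were the called genes, the 12 of smallest p in each direction with at least 5 CPM in 1 group, the same without Δchat library 3, and from each list described up to 4 members by level and 4 by p; variable segments, unnamed models and pseudogenes were left out. Some of the genes so chosen are not reported here. Lists were described without a test. Some lists share members, such as *Eaf2* in the germinal centre and plasma cell lists, so their counts are not independent. Genes outside the rule were chosen after their values were seen, where the text says so. Promoter windows are RefSeq's for GRCm38.p6 and served for sequence only; positions in GRCm39 were not used here.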

Additional observations from a re-analysis of the deposited data

Results flagged for a closer look

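Among 274 groups of 4 libraries, 30 held a library whose gap to the nearest other, as a share of the group's range, was above the critical value of Dixon's test; chance alone flags about 1 in 20 groups. Of these, 14 belonged to Δchat library 3. Its epithelial share of counts was 1.18%, against 0.194 to 0.210% in the other 3. Its *Krt8* stood at 1160 CPM (others 65.6 to 83.7), *Lgals4* at 799 (46.0 to 53.5), *Pigr* at 880 (46.5 to 74.3), *Car1* at 230 (3.44 to 10.8), *Muc2* at 185 (23.1 to 36.8), *Slc26a3* at 134 (0.779 to 4.80), *Ano1* at 105 (22.8 to 33.0), *B3galt5* at 70.5 (11.1 to 12.2) and *Ccl28* at 39.0 (2.38 to 3.72). Its *Bche* stood at 9.06 CPM (others 2.43 to 2.71). In the same library *Stard4* stood at 113 CPM (62.6 to 69.5), *Ckap4* at 58.6 (47.1 to 47.8) and *Igkv3-12* at 24.3 (3.90 to 4.22).

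Δchat library 1 was the outlying one for *Hsp90b1* (961 CPM, others 1318 to 1341), *Canx* (326, others 357 to 362), *Gzmb* (47.6, others 29.3 to 30.3), *Batf3* (6.69, others 5.59 to 5.76) and *Prox1* (3.44, others 7.81 to 8.65). Δchat library 2 stood out for *Ikzf2* (62.8 CPM, others 22.5 to 26.7). Δchat library 4 stood out for *Mzb1* (46.8 CPM, others 60.6 to 61.8), *Zfp280b* (28.6, others 35.4 to 36.8), *Tgfb3* (38.6, others 30.0 to 31.3) and *Mcpt2* (1.16, others 2.66 to 2.84).

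Of the WT libraries, library 1 was lowest by a wide gap for *Klf6* (491 CPM, others 573 to 577), *Itgax* (62.9, others 87.9 to 89.4) and *Klhdc2* (42.7, others 50.2 to 51.4). WT library 2 was highest for *Slpi* (166 CPM, others 76.0 to 80.9) and *Ndufa4* (57.5, others 49.2 to 49.9), and WT library 3 for *Tlr3* (17.9, others 11.2 to 12.1).

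The strain effect differed between colon and ileum, by an edgeR interaction test with adjusted p = 0.0348 and 0.0438, for *Alox5ap* (difference of 1.1 on the log2 scale) and *Retnlg* (3.45); neither passed with the mouse as a block (adjusted p = 0.144 and 0.318).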

How the results depend on the processing

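The count of 1 called gene in colon was 308 by DESeq2, 10 in 1 fit over 16 libraries, 2 with the epithelial score as a covariate, and 0 with the replicate number as a block; the other scalings, filters, gene removals, limma-voom and the fit that was not robust gave 1. Leaving out each library in turn gave 0 (Δchat 1, WT 2 or WT 3) to 3 (WT 4), and 2 without Δchat 3 or WT 1. *Retnla* was higher in all 19 alternatives, with log2 fold changes of 1.58 to 1.85 and adjusted p of 9.9e-22 to 0.143, and passed in 14; it did not pass in the fit over 16 libraries (0.143) or with the block (0.0875), nor without Δchat library 1, WT library 2 or WT library 3. Replicate numbers did not pair mice of the 2 strains: deviations of same-numbered libraries correlated at 0.23, -0.10, 0.37 and -0.08, and 2 of 4 Δchat libraries correlated best with their own number.

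The 9 genes whose strain effect differed between tissues were 3 with the mouse as a replicate block, 58 by DESeq2, and 0 to 35 on leaving out each library in turn, with 35 without ileal Δchat library 2, 7 without colon Δchat library 3, 1 and 3 without colon WT libraries 2 and 3, and 0 without colon Δchat libraries 2 or 4, colon WT library 1, ileal Δchat libraries 1, 3 or 4 or ileal WT libraries 1, 2 or 3; the cause was not tested.

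Values that changed sign among the named genes, none of them called, were those of *Ccr7* (0.13 by limma-voom, 0.37 with the epithelial covariate, -0.27 to 0.026 on leaving out a library, the latter without Δchat library 3) and *Slc44a1* (-0.17, -0.47 and -0.15 to 0.32, the lowest without Δchat library 3), and, with the covariate alone, *Ccl28* (-0.15), *Car1* (-0.89), *Pigr* (-0.16) and *Bche* (-0.16). Acetylcholine genes near 0 also changed sign: *Chrna10* (0.00832 by limma-voom, 0.10 with the covariate, 0.050 with the replicate block, -0.23 to 0.42 on leaving out a library), *Slc44a2* (-0.0066 to 0.17 on leaving out a library) and *Chrnb2* (-0.092 to 0.18). *Gzma*, *Cst7*, *Prf1* and *Stat4* were not among the genes followed over these alternatives. Depth limits genes near 1 CPM, such as *Chrnb4* and *Siglecf*.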
